A study of Mus musculus with 8 samples.

Results

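Messenger RNA from 4 spleen tumours of CD4+ T cells was compared with messenger RNA from 4 spleen tumours of B cells, all of them from C57Bl6 mice. The comparison took in every autosomal gene that reached 1 CPM, the read count scaled to a common library total, in at least 4 of the 8 libraries. This left 11799 genes, out of 25899 autosomal genes with a count in any library, and it used all 8 libraries of the series. Each lineage held 2 tumours with intact Miz1 (B wt and T wt) and 2 tumours with Miz1 deltaPOZ, a Miz1 without its POZ domain (B deltaPOZ and T deltaPOZ), so that genotype was balanced between the lineages. Miz1 is the zinc finger transcription factor encoded by Zbtb17 and a binding partner of Myc. The labels give every tumour a mouse of its own. The sources used here give neither age, nor the driver of the tumours, nor the promoter or Cre behind the POZ deletion. The deposited T tables carry the word Notch in their names, and those of T deltaPOZ also the word ENU, and the labels explain neither. Within T, genotype cannot be told apart from whatever the word ENU stands for.

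B and T lymphocytes descend from common progenitors and are set apart by transcription factors that switch on a lineage programme and silence the alternatives. In B cells Ebf1 and Pax5 lead this programme, which ends in an antigen receptor made of immunoglobulin and the signalling chains Cd79a and Cd79b. In the thymus, signals through Notch1 induce Tcf7, Gata3 and Bcl11b, and the developing T cell passes through stages marked by Il2ra, by the pre-T cell receptor, and then by Cd4 and Cd8a together. Tumours of either kind often keep much of the programme of the cell they came from.

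Levels below are CPM scaled by trimmed mean of M values factors, and values are always listed in the order wt 1, wt 2, deltaPOZ 1, deltaPOZ 2. A difference is the log2 of T over B, averaged over both genotypes, with its standard error (SE). A gene is called higher in T or higher in B where edgeR's quasi-likelihood test gave a Benjamini-Hochberg adjusted p under 0.05 over all 12285 genes tested, sex chromosomes included. The labels' lineages were checked with markers first. Cd3e, a signalling chain of the T cell receptor (ENSMUSG00000032093, GRCm38 chromosome 9, 44998740 to 45009627), read 0.187, 0.29, 0.328 and 0.138 CPM in B and 94.98, 88.1, 86.6 and 81.2 in T. Tcf7, an early T lineage transcription factor (chromosome 11, 52252371 to 52283014), read 1.12, 2.83, 3.72 and 0.926 in B and 666, 543, 391 and 490.3 in T. Ebf1, which starts the B lineage programme (chromosome 11, 44617317 to 45008091), read 258, 246, 82.5 and 145 in B and 4.44, 1.19, 4.83 and 8.62 in T. The groups did not overlap in any of the 3 genes, and the differences were 8.53 ± 0.32, 7.91 ± 0.59 and -5.28 ± 0.50, with adjusted p of 8.7e-05, 0.00038 and 0.00075.

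The label CD4+ does not describe the whole marker pattern of the T tumours. Cd4 itself read 1.98, 11.3, 12.5 and 1.103 CPM in B and 337, 433, 99.4 and 123 in T. Cd8a, which marks CD8+ T cells and the thymocyte stage that carries Cd4 and Cd8a together, read 1.06, 6.002, 3.15 and 1.34 in B and 773, 1248, 358 and 669.6 in T. Its partner chain Cd8b1 read 330.1, 600.4, 126 and 308 in T, and both genes were high in every T library (differences 8.002 ± 0.73 and 7.81 ± 0.65). T and B are used below as the names of the labelled lineages.

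Several features of the libraries bear on all results. Each library held 44330101 to 58271208 gene counts, and 3 counts, the limit that a count of 0 leaves by counting error, stood for 0.0515 to 0.0677 CPM. The deposited names give a single sequencing run for all B tumours and a different run for all T tumours, so run and lineage cannot be told apart. Expression in bulk tissue mixes cell types, so fewer cells of a type and less RNA per cell cannot be told apart either. Libraries B wt 2, T wt 1 and T deltaPOZ 2 stood apart. B wt 2 held the myeloid gene Lyz2 at 635 CPM against 16.4 to 143 in the other 7. T wt 1 held the X-linked Xist at 1267 CPM together with the Y-linked Ddx3y at 22.9 CPM. The other T libraries held both as well, at 11.9 to 36.6 CPM for Xist and 143 to 190 CPM for Ddx3y. T deltaPOZ 2 detected 25387 genes, more than the 18339 to 21078 of the other 7 libraries. Sex differed between libraries, and only autosomal genes are reported. In B, Xist read 960, 1482, 0.926 and 0.749 CPM and Ddx3y 0.0934, 0.290, 173 and 131. Both genes split B wt from B deltaPOZ, so sex and genotype cannot be told apart within B, also for autosomal genes. Sex was not balanced between the lineages either. Zbtb17 read 65.1, 48.1, 48.8 and 58.4 CPM in B and 50.4, 42.3, 40.4 and 38.2 in T, and a count over the whole gene does not check the deletion of a part of it.

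The first principal component held 74.6% of the variance and separated all T from all B libraries. Of the 11799 genes, 4573 (38.8%) were called, 2382 (20.2%) higher in T and 2191 (18.6%) higher in B. The 4 T libraries lay wholly above or wholly below the 4 B libraries for 4681 genes (39.7%). The median difference over all genes was 0.01, and 3169 genes (26.9%) differed by more than 2-fold, counted without a test. These percentages are the background for the counts that follow. Part of the genes entered through a single lineage: 435 reached 1 CPM in the 4 T libraries but in no B library, and 84 the other way round, and such genes had to differ (427 and 78 of them were called). A test against a 2-fold difference called 1018 genes higher in T and 417 higher in B. A fit without B wt 2, T wt 1 and T deltaPOZ 2, with additive terms for lineage and genotype, is named the 5-library fit from here on. The additive model alone called 4610 genes with all 8 libraries, and the 5-library fit called 1341 genes, of which 898 were higher in T, and 1308 of these genes were among the 4573. Leaving out T deltaPOZ 2 alone gave 3085 calls.

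The same contrast was also taken within each genotype of the same fit. It called 2359 genes in wt and 2624 in deltaPOZ. Of the 4573 genes, 4548 had the same sign in both genotypes. These genes had been called on the average of both contrasts, so the agreement in sign was largely set by that choice. The difference between the genotypes' contrasts was tested for every gene, and edgeR called 0 genes at an adjusted p under 0.05, with 729 autosomal genes at an unadjusted p under 0.05.

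Genes of red cell precursors, which lie outside the lymphoid programme, were high in every T library. All 21 tested genes of the erythroid list were called higher in T, with a median difference of 10.77, against 0.01 over all genes. Members such as Epb42 and Epor, described below, were under 1 CPM in every B library. They entered the test through T alone and had to differ. The summed level of the list ran from 6362 to 28408 CPM in the T libraries and from 41.7 to 233 CPM in the B libraries, lowest in T wt 1 and highest in T wt 2 among the T libraries. Slc4a1, the anion exchanger of the red cell membrane, read 0.0934, 0.156, 0.309 and 2.92 CPM in B and 1085, 3803, 1327 and 2144 in T. Hbb-bs, a beta globin gene, read 2.76, 2.88, 7.64 and 151 in B and 2043, 11105, 3859 and 6306 in T. Globin genes are near-identical copies of each other, so reads may be split among them or dropped. Klf1, a transcription factor of red cell precursors, read 0.224, 0.134, 0.251 and 0.315 in B and 46.5, 139.6, 52.7 and 88.8 in T. Hemgn (hemogen), a nuclear protein of haematopoietic cells, was at 0 counts in B deltaPOZ 1. The 5-library fit called 17 of the list, each higher in T.

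A short GATA motif, the site bound by the red cell factor Gata1, was searched for in the promoters of the erythroid list, since these genes were high together. The letters AGATAA, or TTATCT on the opposite strand, were present in 6 of the 14 erythroid promoters with a RefSeq entry (42.9%), 250 bases before to 50 after the start, against 6.05% of 8836 promoters of tested genes. Among promoters of genes called higher in T the share was 7.52%, and among those higher in B 5.64%. The letters were also in 3 of 4 platelet and megakaryocyte promoters (75%) and 3 of 15 neutrophil promoters (20%). The windows of 30 bases around the motif are shown 5′ to 3′ on the strand of the gene with the motif in capitals (GRCm38.p6), since they are the shared letters of a group that moved together.
Epb42, chr2:121037086-121037115, minus strand: gtctctatttccTTATCTcgttcaaacaga
Hemgn, chr4:46404138-46404167, minus strand: tgtggtctaaccAGATAAaacttttaggcg
Rhd, chr4:134864481-134864510, plus strand: cccggcagcctgAGATAAgacctttggcgg
Trim10, chr17:36869399-36869428, plus strand: agctcaagagccTTATCTgagtccccacac
Hbb-bs, chr7:103828121-103828150, minus strand: tgttctctgcacAGATAAggacaaacatta
Epor, chr9:21963613-21963642, minus strand: ggtggctgtagcTTATCTgtccccagcctg
The motif starts 226 bases before the start of Epb42, 29 after that of Hemgn, 43 before Rhd, 163 before Trim10, 210 before Hbb-bs and 54 before Epor. Epb42 encodes a membrane skeleton protein of red cells, Rhd a Rhesus blood group protein and Epor the erythropoietin receptor. Epb42 read 0.0187, 0.0223, 0.0965 and 0.355 CPM in B and 76.4, 405, 152 and 228 in T. Epor read 0.0374, 0.0223, 0.367 and 0.0985 in B and 21.8, 54.9, 19.4 and 32.5 in T. A match of letters is a description and not a bound site.

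Other cell types moved less evenly. NK cell and effector genes were called higher in T for 5 of 9 tested, 2 of them being Cd8a and Cd8b1, and 9 further members did not reach the filter. Gzma, a granule protease, read 0.43, 1.004, 1.33 and 0.197 CPM in B and 136, 52.9, 93.2 and 308 in T (difference 7.54 ± 0.84). Klrb1c, an NK cell receptor, read 1.46, 26.1, 2.68 and 0.768 in B and 119.8, 87.8, 51.4 and 87.3 in T. In both genes all T libraries lay above all B libraries. Macrophage and neutrophil genes varied within the lineages, with summed macrophage levels of 135 to 873 CPM in B and 294 to 568 in T. The summed neutrophil list ran from 62.9 to 846 CPM in B, highest in B wt 2, and from 67.8 to 1038 in T, highest in T wt 1. Of its 16 tested genes edgeR and limma-voom called 0, DESeq2 called 2, and in edgeR 0 had an unadjusted p under 0.05. Csf1r, the macrophage growth factor receptor, read 5.38, 42.01, 23.1 and 6.48 in B and 23.03, 38.6, 51.6 and 48.6 in T and overlapped between the lineages.

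**Figure D1:**
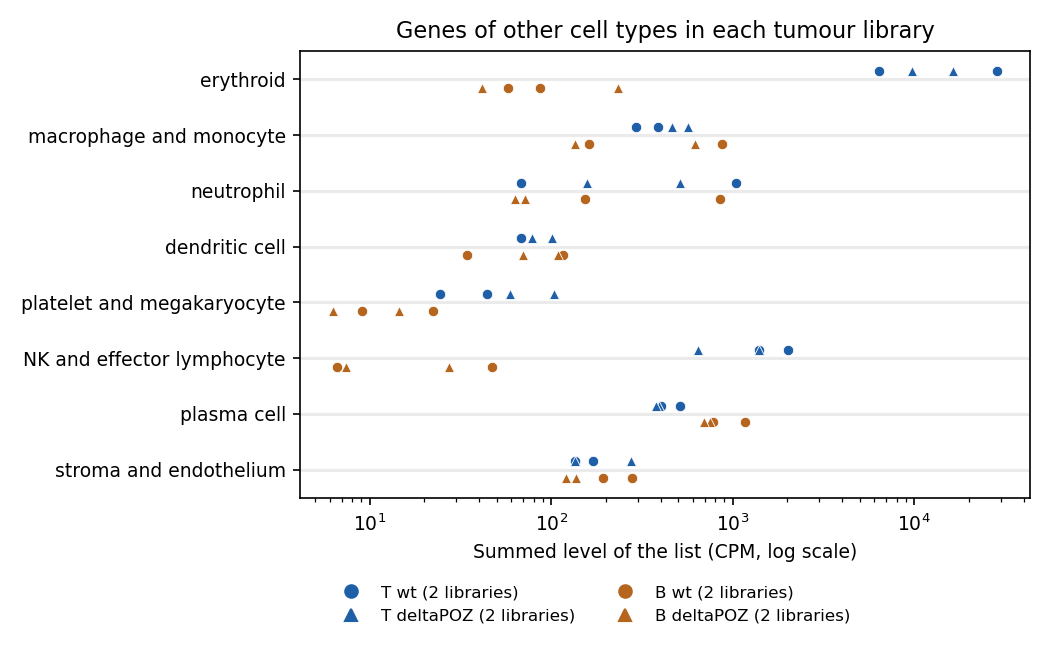
Summed level of each marker list of other cell types, in CPM on a log axis, with 1 point per library, circles for wt and triangles for deltaPOZ. The T libraries sit at 6362 to 28408 CPM for the erythroid list and the B libraries at 41.7 to 233 CPM, while the neutrophil, macrophage, dendritic cell and stroma lists overlap.

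Transcription factors followed the labelled lineages. Of the 21 tested B lineage factors, 14 were called higher in B and 1, Klf3, higher in T, with a median difference of -1.84. Without B wt 1 a further factor was called higher in T, making 2. Of the 22 T lineage factors, 16 were called, each higher in T, with a median of 1.91. Pax5, which holds B cells in their lineage, read 69.7, 62.8, 43.05 and 54.2 CPM in B and 2.44, 0.56, 3.39 and 3.31 in T. Pou2af1, a coactivator of immunoglobulin genes, read 870.3, 586, 596 and 550.2 in B and 40.97, 11.9, 34.9 and 29.1 in T. Hhex, a homeobox factor of early B cells, read 17.3, 21.2, 26.4 and 17.9 in B and 1.08, 0.47, 1.199 and 1.47 in T. No T library reached the lowest B library in these 3 genes, and the differences were -4.66 ± 0.46, -4.47 ± 0.42 and -4.34 ± 0.36. T wt 2 was the lowest library for all 3, as it was for Ebf1. Bach2, Irf8, Spib and Spi1, further factors of the B lineage and of its progenitors, were higher in B as well, with differences of -3.13, -2.38, -2.65 and -2.59.

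Among the T lineage factors Gata3 read 0.0187, 0.156, 0.154 and 0.0985 CPM in B and 12.03, 7.84, 12.9 and 10.4 in T. Bcl11b, which seals T commitment, read 0.43, 3.28, 1.64 and 0.631 in B and 354, 379, 199.9 and 208 in T. Satb1, an organiser of chromatin in thymocytes, read 3.85, 19.9, 10.4 and 7.33 in B and 1246, 989, 1246 and 709.9 in T. Each stood far above its B levels in every T library, with differences of 6.67 ± 0.60, 7.56 ± 0.71 and 6.67 ± 0.61. Tox, Lef1, Ikzf2 and Tcf12 were higher in T by 6.92, 3.24, 5.84 and 2.40. In contrast Sox4 read 299, 189, 178 and 145 in B and 291, 282, 289 and 224 in T, and the B factor Ikzf3 read 192, 101, 96.7 and 99.8 in B and 246, 201, 146 and 123 in T, and neither passed the test (adjusted p = 0.094 and 0.093). The 5-library fit called 12 B lineage factors, each higher in B, and 11 T lineage factors, each higher in T.

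**Figure D2:**
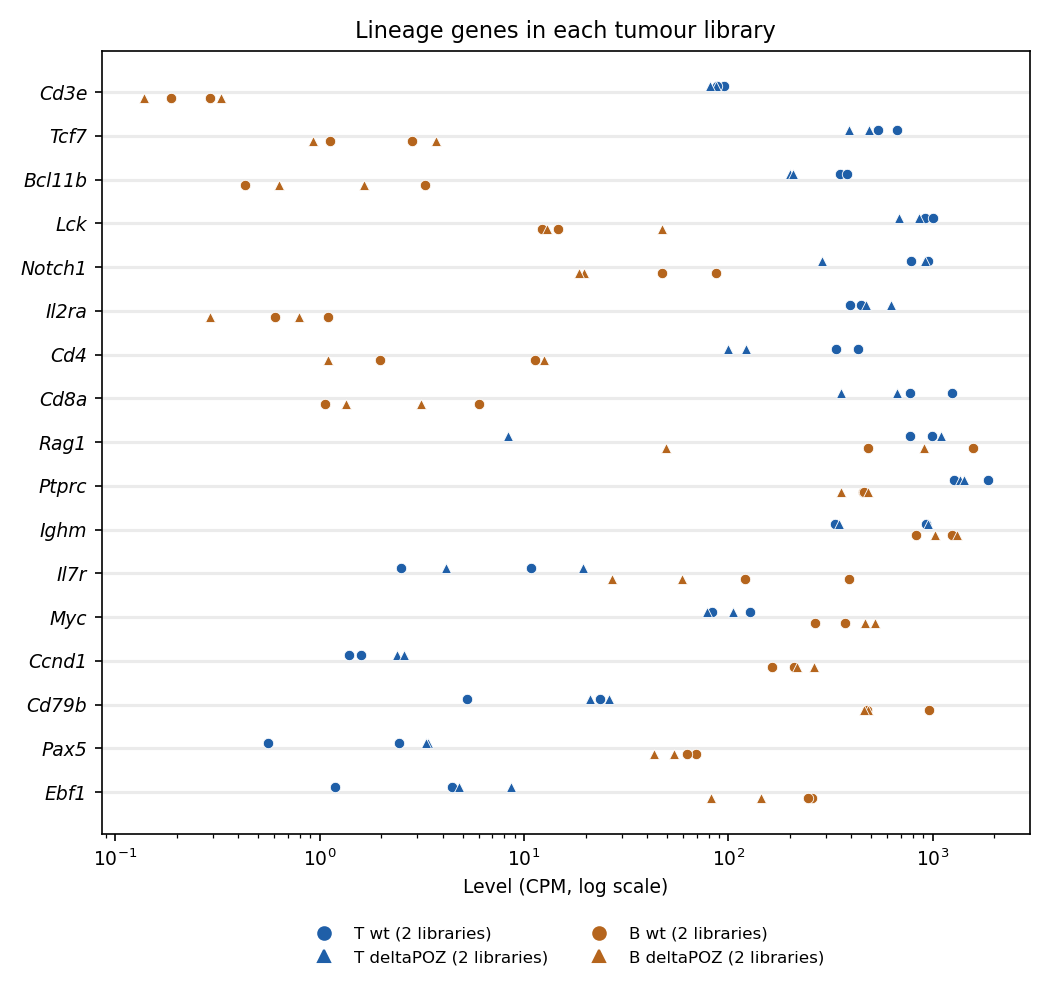
Level of 17 genes in CPM on a log axis, with 1 point per library, circles for wt and triangles for deltaPOZ. The T libraries are to the right for Cd3e to Cd8a and for Ptprc, the B libraries for Il7r to Ebf1, and the lineages overlap for Rag1 and Ighm.

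Factors of blood progenitors and of leukaemia did not go one way. Of 15 tested, 7 were called higher in T and 5 higher in B. Lyl1, a basic helix-loop-helix factor of progenitors, read 109.7, 125, 53.1 and 67.98 CPM in B and 31.3, 39.8, 31.7 and 24.9 in T, and Mef2c read 108, 161, 113 and 94.9 in B and 12.1, 2.51, 10.1 and 15.2 in T. Both were higher in B without overlap. Tal1, a T cell leukaemia oncogene that also drives red cell development, read 0.187, 3.08, 0.386 and 0.433 in B and 110.4, 284, 127 and 178 in T (difference 7.73 ± 0.90). Gfi1b, another factor shared with red cell precursors, was at 12.6 to 32.3 CPM in T and at 0 to 0.971 in B. In T both followed the erythroid sum in their highest library, T wt 2, and the part of red cell precursors in these 2 results was not tested. Ikzf1 (Ikaros) read 395, 274, 255 and 307 in B and 1139.5, 884, 1051 and 539 in T, and Myb, needed by progenitors of either lineage, read 484, 338, 157 and 233 in B and 856, 659.6, 653 and 509 in T. Both were higher in T, by 1.55 ± 0.25 and 1.23 ± 0.21.

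Signalling genes of the antigen receptors were mostly higher in the lineage that uses them, while none of the tested immunoglobulin genes was called higher in B. Of 22 genes of the B cell receptor list 16 were called higher in B and 4 higher in T, with a median of -3.13. Of 31 genes of the T cell receptor list 27 were called, each higher in T, with a median of 4.55. Cd79b read 955, 479.9, 482 and 462 CPM in B and 23.4, 5.24, 21.05 and 26.04 in T, a difference of -4.99 ± 0.53 (SE), adjusted p = 0.0011. Blnk, the adaptor below the B cell receptor, read 288, 151, 161 and 141 in B and 8.31, 2.095, 6.4002 and 7.66 in T. B libraries were higher throughout, and in T the residual level of both genes was lowest in T wt 2. Ighm, the heavy chain of immunoglobulin M, did not follow the list: it read 1238, 827, 1320.03 and 1022 in B and 925, 334, 953 and 346 in T, with overlap (adjusted p = 0.19). The 4 genes of the B cell list called higher in T were Prkcb, the adaptor Gab1, Rasgrp3 and the adaptor Dapp1, and the calls of Dapp1 and Rasgrp3 were lost without B wt 1, T wt 1 or T deltaPOZ 2, which left 2. Dapp1 was also lost without B wt 2, B deltaPOZ 1, B deltaPOZ 2 or T deltaPOZ 1.

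The immunoglobulin and T cell receptor genes themselves, variable and constant segments counted one by one, differed in how they followed the lineages. All 9 tested T cell receptor segments were called higher in T. They reached the filter mainly through the T libraries, so the direction of these calls was largely set by the filter. Of 42 tested immunoglobulin segments edgeR called 13 higher in T and 0 higher in B, with 0 toward B at an unadjusted p under 0.05, and limma-voom (13) and DESeq2 (20) also called 0 higher in B. A segment that reached 1 CPM in fewer than 4 libraries was not tested, so one high in only a few B tumours could be missed. The count higher in T was 5 without B wt 1, 7 without T wt 1 or without T deltaPOZ 1, and 3 in the 5-library fit. Immunoglobulin segments took 0.149, 0.0954, 0.166 and 0.111% of counts in the B libraries and 0.183, 0.0469, 0.200 and 0.0719% in the T libraries. The shares overlapped, and the lowest was T wt 2, the library lowest for the B lineage factors above. Segments of T cell receptors took at most 0.000925% of counts in B and 0.0872 to 0.128% in T. Segments are near-identical copies of each other, so reads may be split among them or dropped. The part of plasma cells or other B cells within the T tumours in these values was not tested.

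In the T cell receptor list Cd3g read 0.822, 4.11, 3.705 and 1.26 CPM in B and 235, 307, 283 and 336 in T. Lat, the membrane scaffold of T cell receptor signalling, read 6.78, 6.11, 2.296 and 1.38 in B and 271, 240.4, 148 and 272 in T. Themis, needed for thymocyte selection, read 0.728, 3.26, 2.14 and 0.768 in B and 346, 302, 120.3 and 442 in T. All T libraries were above all B libraries, with differences of 6.87 ± 0.64, 6.07 ± 0.30 and 7.47 ± 0.76. Among B libraries B wt 2 and B deltaPOZ 1 held the highest residual Cd3g and Themis. Vav1, a guanine nucleotide exchange factor used by both receptors, read 197, 181, 147 and 186 in B and 185, 196, 174 and 176 in T. It overlapped and did not pass (adjusted p = 0.81). The 5-library fit called 20 of the T cell receptor list, each higher in T, and of the B cell receptor list 9 higher in B and 1 higher in T.

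Many steps of receptor signalling are carried out by related proteins in the 2 lineages, and 23 pairs of such genes were set side by side. In 9 pairs the members were called in opposite directions, in 3 in the same direction, and in 11 only a single member or neither was called. The kinase bound to the receptor is Zap70 in T cells and Syk in B cells. Zap70 read 12.5, 11.6, 4.25 and 10.1 CPM in B and 167, 193, 191 and 185 in T, and Syk read 1085, 502, 429.9 and 347 in B and 51.7, 15.99, 40.4 and 53.9 in T. Neither gene overlapped between the lineages (differences 4.304 ± 0.29 and -3.796 ± 0.45). Per kb of exon, the log2 ratio of Zap70 to Syk was 3.34 to 5.24 in the T libraries and -5.02 to -3.45 in the B libraries. The Src family kinases Lck and Blk gave a log2 ratio per kb of 6.76 to 9.63 in T and -4.05 to -0.36 in B. Within B, Lck was highest in B deltaPOZ 2 at 47.4 CPM, the others reading 12.2 to 14.7. The scaffolds Lcp2 and Blnk gave 4.27 to 6.18 in T and -6.51 to -3.53 in B. Phospholipase C gamma is encoded by Plcg1 and Plcg2, with ratios of 2.24 to 4.67 in T and -6.22 to -2.69 in B.

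Outside receptor signalling Bcl11b with Bcl11a and Hk2 with Hk1 were the pairs called in opposite directions. Bcl11b over its relative Bcl11a gave a log2 ratio per kb of 4.07 to 5.11 in T and -6.37 to -4.04 in B. The hexokinase Hk2 read 44.9, 107, 133 and 122 CPM in B and 10.9, 18.4, 28.1 and 14.8 in T, whereas Hk1 read 15.6, 12.1, 11.9 and 3.96 in B and 122, 219, 109.9 and 130.1 in T. Hk1 is abundant in red cells, its highest T library was T wt 2 as for the erythroid sum, and the part of red cell precursors in its difference was not tested. Stat5a and Stat5b were both higher in T, by 1.24 ± 0.17 and 1.55 ± 0.13, as were the INK4 inhibitors Cdkn2d (1.79 ± 0.28) and Cdkn2c (1.69 ± 0.27). Of the protein kinase C genes Prkcq read 0.635, 3.24, 2.55 and 0.946 in B and 116, 78.5, 34.1 and 86.9 in T, and Prkcb read 163, 162, 132 and 125 in B and 224, 311, 205 and 249 in T, and both were called higher in T.

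**Figure D3:**
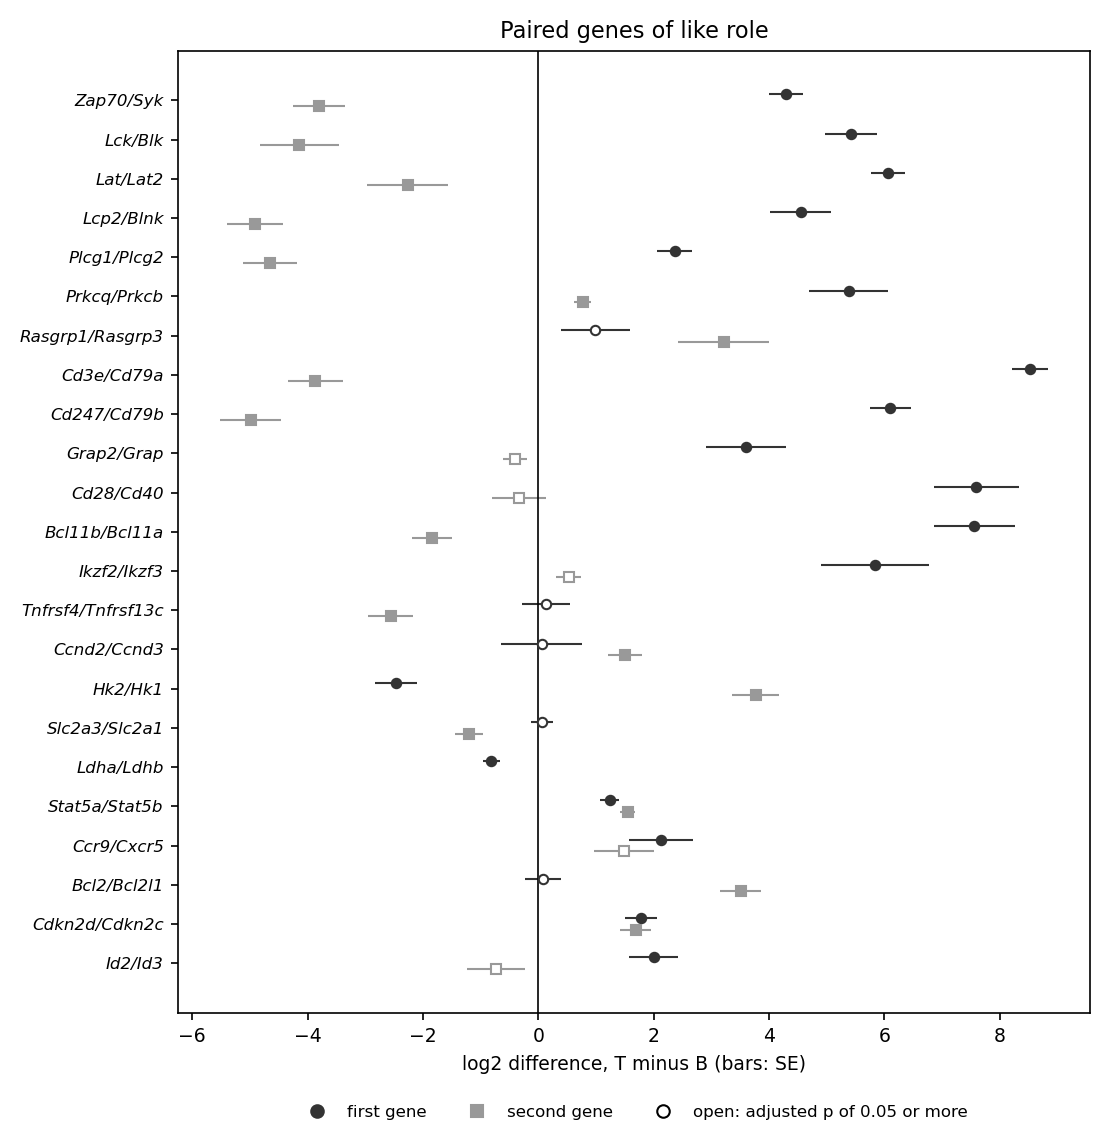
Fitted log2 difference of T minus B for the 2 genes of each of the 23 pairs, with bars of 1 SE. Dark circles mark the first gene of a pair, grey squares the second, and open symbols an adjusted p of 0.05 or more. Zap70 lies at 4.30 and Syk at -3.80. Ldhb was not tested and has no point.

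Genes of V(D)J recombination, the cutting and joining of receptor gene segments, did not separate the lineages as a group. Of 13 tested, 5 were called higher in T and 2 higher in B. Rag1, a subunit of the recombinase, read 1570.5, 484, 910.02 and 49.7 CPM in B and 771, 990.1, 8.36 and 1105 in T, with lows in B deltaPOZ 2 and T deltaPOZ 1, and it overlapped (adjusted p = 0.998). Dntt, which adds bases at the joints, read 1.81, 1.07, 0.444 and 0.0394 in B and 114, 418, 5.16 and 287 in T and was higher in every T library, lowest in T deltaPOZ 1 (difference 8.37 ± 1.48). Vpreb3, a protein that assists light chain assembly in B cell precursors, read 339, 227, 34.3 and 150.3 in B and 0.718, 0.145, 0.701 and 1.11 in T and was higher in B (-8.01 ± 0.74). The repair factors split as well, with Xrcc6 (Ku70) higher in T by 1.47 ± 0.25 and its partner Xrcc5 (Ku80) higher in B (-0.69 ± 0.12). The counts were 2 higher in T and 1 higher in B in the 5-library fit.

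Genes that mark thymocyte stages were mostly higher in T. Of 21 tested, 14 were called higher in T and 1, Il7r, higher in B, with a median of 3.82. Ptcra, the pre-T cell receptor alpha chain, read 0.523, 0.0892, 0.54 and 0.631 CPM in B and 102, 222, 19.1 and 178 in T. Il2ra, the high-affinity interleukin 2 receptor chain of early thymocytes and of activated T cells, read 1.102, 0.602, 0.289 and 0.788 in B and 444, 392, 474 and 625 in T. Arpp21, an RNA-binding protein of thymocytes, read 0.766, 1.99, 0.0193 and 0.0788 in B and 215, 198, 40.6 and 221 in T. All 3 were higher in every T library, and T deltaPOZ 1 was the lowest T library for Ptcra and Arpp21. Il7r, the interleukin 7 receptor of precursors of both lineages, read 388, 121, 26.99 and 59.03 in B and 10.8, 2.51, 4.15 and 19.5 in T. B wt 1 was highest, and all T libraries lay below all B libraries (difference -3.56 ± 0.76 (SE), adjusted p = 0.011). Cd44 and Cd24a, which rise and fall over thymocyte stages, overlapped between the lineages (adjusted p = 0.996 and 0.3). Without T wt 1 a further gene was called higher in B, making 2. The counts were 9 higher in T and 1 higher in B in the 5-library fit.

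Notch signalling works through receptors that are cut on ligand binding and release a fragment that joins Rbpj on DNA. Of 32 genes of receptors, regulators and targets 13 were called higher in T and 5 higher in B. Notch1 read 87.2, 47.2, 19.8 and 18.6 CPM in B and 780.3, 948, 288 and 921 in T. Notch3, itself a target, read 0.0747, 2.37, 0.984 and 0.296 in B and 223, 353, 96.6 and 202 in T. Both were higher in all T libraries, with T deltaPOZ 1 the lowest of them, and the differences were 4.33 ± 0.43 and 7.88 ± 0.99. The target Dtx1 read 4.31, 2.48, 1.18 and 4.99 in B and 785, 823, 767 and 991 in T. Nrarp, a target that feeds back on the pathway, read 1.05, 2.08, 2.47 and 4.197 in B and 353, 306, 524 and 1199 in T, highest in T deltaPOZ 2. Heyl, of the Hes and Hey family of repressors, read 0.579, 0.312, 0.347 and 0.158 in B and 78.5, 92.9, 58.5 and 117 in T. The differences of these 3 targets, 8.02 ± 0.56, 7.87 ± 0.45 and 7.995 ± 0.43, were each close to 8.

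The list also holds Il2ra and Ptcra, described with the thymocyte genes. Some of the other members changed less or were higher in B. Hes1, the best known target, read 14.8, 14.99, 11.2 and 16.8 CPM in B and 43.99, 45.05, 41.7 and 53.7 in T, a difference of 1.67 ± 0.19 (SE), adjusted p = 0.0012. Lfng, a glycosyltransferase that alters Notch receptors, read 72.1, 72.1, 71.5 and 55.8 in B and 10.9, 8.796, 8.69 and 10.03 in T and was higher in B (-2.82 ± 0.16). Notch2, the receptor used by B cells, read 97.5, 115, 249.95 and 173 in B and 87.2, 90.4, 102 and 93.1 in T. Its groups overlapped, it was called higher in B (-0.69 ± 0.15 (SE), adjusted p = 0.013), and the call was lost without T deltaPOZ 2 (adjusted p = 0.051). Myc, a Notch target in T cell leukaemia, was also among the genes higher in B and is described with growth genes. Rbpj read 30.3, 26.8, 27.1 and 19.1 in B and 40.1, 35.1, 30.9 and 39.2 in T (adjusted p = 0.064). Without T deltaPOZ 2 the count higher in B fell from 5 to 3, and within the 5-library fit 8 genes were higher in T and 3 higher in B.

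Cytokine receptors and their JAK and STAT mediators were called higher in T for 22 of 44 and higher in B for 6. Stat5b, the main mediator of interleukin 2 and 7 signals, read 87.6, 85.8, 84.8 and 105 CPM in B and 299, 258, 234 and 276 in T. Cish, a feedback inhibitor induced by Stat5, read 0.168, 0.402, 0.463 and 0.177 in B and 18.7, 19.6, 10.99 and 13.3 in T. Every T library was higher in both genes (1.55 ± 0.13 and 5.65 ± 0.46). Socs1 and Socs3, feedback inhibitors as well, were higher in T by 3.02 ± 0.52 and 2.62 ± 0.43. Il12rb2, a chain of the interleukin 12 receptor, read 0.299, 0.312, 0.425 and 0.0394 in B and 43.1, 20.8, 12.5 and 61.3 in T, and Kit read 0.542, 1.78, 0.386 and 0.315 in B and 7.52, 9.81, 8.54 and 10.4 in T. On the B side stood Il7r and Il6ra, the latter at 28.4, 14.6, 28.4 and 10.9 in B and 3.17, 1.39, 4.26 and 3.34 in T. Jak1, the kinase shared by most of these receptors, overlapped (209, 255, 231 and 143 in B, 282, 212, 206 and 201 in T, adjusted p = 0.69). The counts were 9 higher in T and 3 higher in B in the 5-library fit.

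The PI3K and mTOR list gave 12 of 38 genes higher in T and 9 higher in B. Leaving out T wt 1 or B wt 2 left 6 higher in T, and leaving out T wt 2 left 7, while the 5-library fit called 5 higher in T and 4 higher in B. Eif4ebp1, a repressor of translation held in check by mTOR, read 33.6, 36.3, 50.1 and 53.1 CPM in B and 7.91, 9.01, 11.4 and 10.4 in T and was higher in B (-2.15 ± 0.15). Pik3ap1, the adaptor that couples the B cell receptor to PI3K, read 108, 54.7, 28.7 and 25.4 in B and 6.23, 3.29, 8.15 and 7.16 in T, also higher in B. Foxo3, a factor that AKT holds out of the nucleus, read 43.2, 40.9, 44.8 and 33.8 in B and 124, 266, 151 and 151 in T and was higher in T by 2.08 ± 0.25. Among the T libraries Foxo3 was lowest in T wt 1 and highest in T wt 2, as the erythroid sum was. The part of red cell precursors in it was not tested. The catalytic subunit Pik3ca overlapped (adjusted p = 0.86).

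Of 49 genes of the RAS and MAP kinase list 16 were higher in T and 7 higher in B. Dusp6, a phosphatase that turns off ERK and is induced by it, read 367, 253, 56.1 and 45.4 CPM in B and 12.3, 10.02, 14.6 and 10.9 in T. It was higher in B throughout (-3.39 ± 0.20), and within B the wt libraries, which also differed in sex, stood above the deltaPOZ libraries. Egr2, an early response gene of receptor signals, read 0.411, 1.67, 0.733 and 0.217 in B and 10.5, 15.1, 17.6 and 2.98 in T, higher in every T library (4.02 ± 0.80). Rasgrp1, which links receptors to RAS, overlapped, with 702 CPM in B deltaPOZ 2 and 16.8 to 82.9 in the remaining B libraries. Without T wt 1 the count higher in T was 10, and within the 5-library fit it was 5, with 2 higher in B.

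NF-kB genes were called in 9 of 27 cases, 8 of them higher in T. The share called, 33.3%, was below the 38.8% of all genes. Tnfaip3 (A20), which restrains NF-kB and is induced by it, read 14.5, 14.3, 7.66 and 7.74 CPM in B and 48.7, 50.3, 38.7 and 39.6 in T, and Nfkbiz, another induced regulator, read 7.62, 8.501, 8.03 and 8.67 in B and 33.2, 24.3, 44.3 and 18.5 in T. Both were above all B libraries in each T library (2.07 ± 0.13 and 1.87 ± 0.31). The adaptor Traf5 was the gene higher in B (54.9, 35.5, 58.8 and 20.9 in B, 10.3, 11.3, 8.26 and 13.4 in T), and without B wt 2 a further gene joined it. The subunit Nfkb1 and the kinase gene Ikbkb did not pass (adjusted p = 0.16 and 0.45). The count higher in T was 5 without T deltaPOZ 1 and 3 within the 5-library fit.

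Of 30 Wnt and TGF-beta genes 10 were higher in T and 4 higher in B. Axin2, a target of beta-catenin with Tcf7 and Lef1, read 1.66, 2.19, 0.637 and 0.217 CPM in B and 18.6, 15.05, 13.8 and 26.6 in T (4.34 ± 0.44). Smad7 and Skil, feedback inhibitors of TGF-beta signalling, were higher in B. Smad7 read 36.5, 23.2, 22.5 and 12.3 CPM in B and 5.23, 2.24, 3.47 and 4.85 in T. Skil read 84.9, 58.8, 93.8 and 46.9 in B and 25.1, 15.8, 18.4 and 26.7 in T. Ctnnb1 (beta-catenin) overlapped between the lineages (adjusted p = 0.33). With B wt 1 left out 5 were higher in T, with any 1 T library left out 6, and the 5-library fit called 4 higher in T and 2 higher in B.

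Toll-like receptors and innate adaptors leaned to B, with 10 of 27 higher in B and 7 higher in T. Unc93b1, which carries Toll-like receptors to endosomes, read 257, 140.03, 101 and 93.7 CPM in B and 18.4, 13.6, 25.2 and 33.03 in T, and Irf5, a factor below these receptors, read 118, 73.6, 51.1 and 88.6 in B and 7.93, 3.32, 9.37 and 9.56 in T. The surface pair Cd180 and Ly86, a Toll-like complex of B cells, was higher in B (-2.78 ± 0.36 and -3.201 ± 0.21). Myd88, the common adaptor, did not differ detectably (-0.05 ± 0.16, adjusted p = 0.83). The counts were 4 higher in B and 1 higher in T in the 5-library fit.

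Interferon response genes were called in 29 of 46 cases, 26 of them higher in T, with a median of 1.07. Rsad2 (viperin) read 0.784, 1.34, 9.802 and 3.61 CPM in B and 189, 493, 283 and 328 in T, Isg15 read 0.243, 0.803, 2.26 and 0.512 in B and 35.4, 60.7, 30.5 and 29.02 in T, and Oas3 read 0.411, 2.23, 3.61 and 2.48 in B and 36.9, 60.7, 32.98 and 37.8 in T. T libraries were above B libraries in all 3 (6.92 ± 0.53, 5.48 ± 0.62 and 4.38 ± 0.54), and among the B libraries B deltaPOZ 1 was highest for each. Ifi209 went the other way at 305, 302, 78.8 and 80.9 in B and 26.1, 29.1, 13.9 and 15.4 in T (-2.95 ± 0.11 (SE), adjusted p = 8.7e-05), with the wt libraries above the deltaPOZ libraries within each lineage. Without T wt 1, 17 were higher in T. The count higher in B, 3 in all, was 1 without B deltaPOZ 1, T wt 1, T wt 2 or T deltaPOZ 1. The counts were 8 higher in T and 1 higher in B in the 5-library fit.

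**Figure D4:**
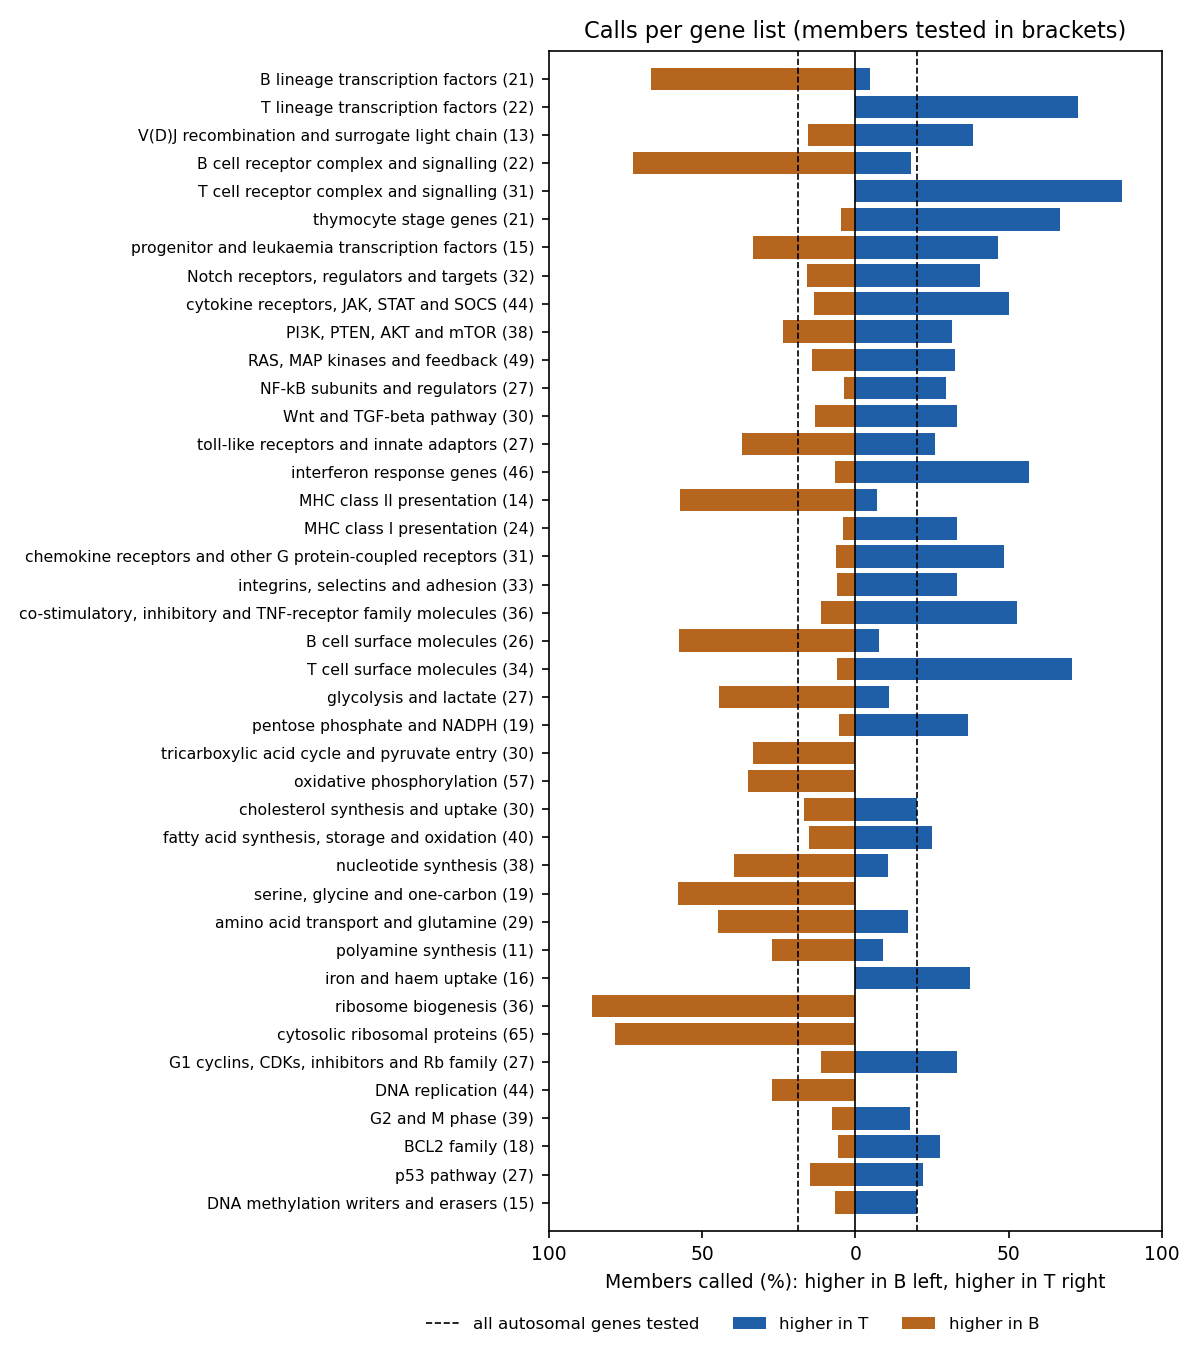
Share of the tested members of each list, marker lists of other cell types left out, called higher in T (right, blue) or higher in B (left, brown), in percent, with the number tested in brackets. Dashed lines mark the 20.2% and 18.6% of all autosomal genes. The T cell receptor list (27 of 31) reaches farthest right and ribosome biogenesis (31 of 36) farthest left.

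At the cell surface, MHC class II genes leaned to B, while class I genes were called about as often as all genes. Of 14 MHC class II genes 8 were called higher in B and 1, H2-Oa, higher in T. H2-Ab1, a class II beta chain, read 92.1, 173, 318 and 162 CPM in B and 55.8, 20.05, 51.9 and 67.5 in T, and Ctss, the protease that clears the invariant chain, read 166, 165, 274 and 143 in B and 41.1, 28.6, 46.8 and 54.6 in T. Both were higher in all B libraries (-1.91 ± 0.41 and -2.15 ± 0.24). The invariant chain Cd74 read 86.6, 261, 613 and 503 in B, lowest in B wt 1, and 161, 45.4, 153 and 202 in T. Cd74 and the chains H2-Aa and H2-Eb1 overlapped and did not pass (adjusted p = 0.089, 0.14 and 0.13). The count higher in B was 5 without B deltaPOZ 1, T wt 2 or T deltaPOZ 2 and 4 without T deltaPOZ 1. H2-Oa, a regulator of class II loading, read 6.52, 3.39, 6.08 and 2.21 in B and 8.31, 9.97, 10.3 and 16.5 in T, and its call failed in fits without T deltaPOZ 1, T deltaPOZ 2, T wt 1, T wt 2, B deltaPOZ 2, B wt 1 or B wt 2 (adjusted p of 0.052 to 0.14). The 5-library fit called 4 genes, each higher in B.

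Class I genes were called in 9 of 24 cases, 8 of them higher in T. This share, 37.5%, was near the 38.8% of all genes, and the median difference was 0.34. B2m, the light chain of all class I molecules, read 366, 237, 233 and 376 CPM in B and 809.9, 874, 808 and 976 in T (1.52 ± 0.22). H2-T22, a non-classical class I gene, read 32.5, 20.2, 18.9 and 21.1 in B and 153, 139, 45.4 and 106 in T. The classical heavy chains H2-K1 and H2-D1 overlapped and did not pass (adjusted p = 0.69 and 0.87). Class I genes are close copies of each other, so reads may be split between them. Canx, a chaperone of class I assembly, was the gene higher in B, at 912, 1217, 1328 and 1233 in B and 641, 684, 829.9 and 722 in T. The count higher in T was 5 without T wt 1 and 3 within the 5-library fit.

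B cell surface molecules were called higher in B for 15 of 26 and higher in T for 2, with a median of -1.94. Beside the receptor chains above, Cd93, found on immature B cells, read 715, 524, 443 and 76.5 CPM in B and 4.87, 2.66, 5.99 and 9.29 in T. Siglecg, a lectin that dampens B cell receptor signals, read 174, 136, 115 and 99.3 in B and 5.44, 1.34, 5.902 and 6.599 in T. Cd22, a related inhibitory lectin, read 236, 217, 182 and 225 in B and 23.6, 6.41, 15.8 and 32.6 in T. All T libraries were below all B libraries in these genes, with differences of -6.22 ± 0.65, -4.81 ± 0.45 and -3.49 ± 0.46. Spn (CD43), listed here because B cell precursors carry it and abundant on T cells, read 100.1, 166, 72.6 and 162 in B and 488, 405, 442 and 379 in T and was higher in T. The second gene higher in T, Bst1, read 31.4, 20.5, 0.868 and 1.62 in B and 70.2, 108, 5.02 and 186 in T, and its call failed in fits without B deltaPOZ 1, B deltaPOZ 2, B wt 1 or B wt 2 (adjusted p of 0.058 to 0.073). Cd24a and Cd40 did not pass (adjusted p = 0.3 and 0.61). The counts were 9 higher in B and 2 higher in T in the 5-library fit.

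T cell surface molecules were called higher in T for 24 of 34 and higher in B for 2, with a median of 3.56. Cd28, the main co-stimulatory receptor of T cells, read 0.448, 2.16, 2.41 and 0.473 CPM in B and 330.1, 229, 286 and 217 in T. Cd5, which tunes T cell receptor signals, read 0.672, 2.92, 1.99 and 1.02 in B and 111, 94.8, 147 and 37.3 in T. Ptprc (CD45), a phosphatase of all white cells, read 457, 464, 358 and 485 in B and 1857, 1277, 1368 and 1429 in T and was higher in T. Thy1 read 0.467, 1.78, 1.83 and 11.4 in B and 166, 201, 215 and 297 in T, and B deltaPOZ 2 stood above the other B libraries. The groups were apart in these genes, by 1.75 ± 0.17 for Ptprc and by the larger differences of Cd28, Cd5 and Thy1 (7.598 ± 0.74, 5.89 ± 0.69 and 6.32 ± 0.73). The 2 genes higher in B were members of the SLAM receptor family and its ligands: Slamf7 read 132, 113, 50.2 and 68.1 in B and 2.61, 0.849, 1.09 and 1.61 in T, and Cd48 read 132, 156, 80.9 and 128 in B and 44.03, 42.8, 49.5 and 49.2 in T. Ly9, of the same family, overlapped (adjusted p = 0.084). The counts were 16 higher in T and 1 higher in B in the 5-library fit.

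Co-stimulatory, inhibitory and TNF-receptor family genes were higher in T for 19 of 36 and higher in B for 4. Cd27 read 0.243, 1.23, 1.39 and 0.394 CPM in B and 165, 143, 164 and 124 in T (7.53 ± 0.64). The inhibitory receptor Lag3 read 0, 0.134, 0.463 and 0.118 in B and 8.84, 12.95, 3.12 and 6.68 in T, and Pdcd1 (PD-1) read 0.243, 0.201, 1.04 and 0.374 in B and 17.6, 4.91, 22.2 and 2.61 in T, higher in T wt 1 and T deltaPOZ 1 than in the other T libraries. On the B side were receptors for the B cell survival factors BAFF and APRIL, Tnfrsf13c at 112, 43.7, 36.3 and 20.3 in B and 7.74, 10.8, 5.24 and 8.52 in T and Tnfrsf13b at 124, 64.95, 60.7 and 88.9 in B and 45.4, 23.9, 10.7 and 14.3 in T. Tnfrsf19, an orphan receptor of the family, was also higher in B (-4.19 ± 0.67). The counts were 10 higher in T and 3 higher in B in the 5-library fit.

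Among receptors that guide migration, 15 of 31 chemokine and other G protein-coupled receptors were higher in T and 2 higher in B. Ccr4, found on T helper cells, read 0.0187, 0.112, 0.232 and 0.0591 CPM in B and 11.4, 14.03, 6.95 and 10.3 in T. Cxcr4, the receptor that holds precursors in the bone marrow, read 398, 163, 187 and 195 in B and 265, 250.3, 238 and 279 in T and overlapped. The 2 calls higher in B were S1pr4, a lipid receptor, and Hrh2, a histamine receptor. The call of S1pr4 was lost without T deltaPOZ 2 (adjusted p = 0.065) or B wt 1 (adjusted p = 0.052), and that of Hrh2 without T deltaPOZ 1, T wt 1, T wt 2, B deltaPOZ 2, B wt 1 or B wt 2 (adjusted p of 0.056 to 0.11). The counts were 4 higher in T and 2 higher in B in the 5-library fit.

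Adhesion molecules were higher in T for 11 of 33 and higher in B for 2. The share called, 39.4%, was near the 38.8% of all genes. Itga4, a chain of the integrins VLA-4 and of the gut-homing integrin, read 606, 663, 307 and 382 CPM in B and 3032, 2528, 2806 and 1805 in T, which made it the T-high gene with the third largest difference in CPM. Itgal, the alpha chain of LFA-1, read 20.8, 28.4, 9.05 and 5.22 in B and 177, 206, 207 and 153 in T. The tetraspanins went apart, with Cd82 at 13.8, 16.1, 5.73 and 4.35 in B and 249.8, 493, 279.8 and 581 in T and Cd37 at 263, 251, 66.5 and 81.9 in B and 27.5, 23.05, 29.5 and 29.1 in T. Icam1, the ligand of LFA-1, was higher in B at 29.7, 46.03, 38.2 and 56.6 in B and 15.7, 11.1, 9.52 and 10.2 in T. In each of these 5 genes the lineages were apart. Icam4, an adhesion molecule of red cells, was higher in T by 5.299 ± 0.66 and highest in T wt 2, as the erythroid sum was, and the part of red cell precursors was not tested. Itgb1 and Cd44 overlapped (adjusted p = 0.64 and 0.996). The counts were 8 higher in T and 2 higher in B in the 5-library fit.

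Of 265 tested entries in the growth lists, 40.0% were called higher in B and 10.9% higher in T, against 18.6% and 20.2% of all genes. Most calls toward B came from ribosomal proteins (51 of 65) and ribosome biogenesis (31 of 36). DNA replication gave 12 of 44 toward B, G1 genes 3 of 27, and G2 and M phase 3 of 39. The p53 list gave 4 of 27 toward B, the BCL2 family 1 of 18 and DNA methylation genes 1 of 15. Myc, which drives ribosome production and cell growth, read 374, 266, 468 and 519 CPM in B and 127, 83.4, 105 and 78.8 in T, higher in all B libraries (-2.02 ± 0.20 (SE), adjusted p = 0.00093; chromosome 15, 61985391 to 61990374). Of 36 genes of ribosome biogenesis 31 were called, each higher in B, with a median of -0.75. Npm1 (nucleophosmin) read 2891, 3075, 4099.9 and 3696 in B and 1116, 1287, 1870.03 and 1567 in T. Nop16, a nucleolar protein, read 114, 143, 163 and 173 in B and 39.4, 49.3, 53.7 and 41.8 in T. Polr1b, a subunit of RNA polymerase I, read 184, 248, 369 and 464 in B and 109, 126, 158 and 101 in T. All 3 were higher in every B library, by 2.37-, 3.19- and 2.43-fold. Ncl (nucleolin), another abundant nucleolar protein, read 661, 987, 818 and 838 in B and 1113, 1112, 1327 and 938 in T, with an adjusted p of 0.09. The count higher in B was 20 without T wt 1 and 19 without T deltaPOZ 2. In the 5-library fit it was 4, with a negative difference for 34 of the 36 genes.

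The E-box CACGTG, a site recognised by Myc with Max and by related factors, was searched for in the same promoter windows, since ribosome biogenesis genes and Myc were both higher in B. It was present in 9 of 31 ribosome biogenesis promoters with an entry (29.0%), against 10.5% of the 8836 promoters, 14.1% of those of genes higher in B and 8.75% of those of genes higher in T. In the ribosomal protein list, also high in B, it was in 5 of 49 promoters (10.2%). The DNA replication list had it in 6 of 35 (17.1%) and the cholesterol list, which had no lean to B, in 5 of 21 (23.8%). The motif reads the same on both strands. Windows of 30 bases, on the strand of the gene and with the motif in capitals, are given for the 5 called genes where the window lay within the entry (GRCm38.p6).
Utp4, chr8:106893643-106893672, plus strand: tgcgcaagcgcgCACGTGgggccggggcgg
Pes1, chr11:3963965-3963994, plus strand: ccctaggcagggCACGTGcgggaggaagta
Wdr43, chr17:71616220-71616249, plus strand: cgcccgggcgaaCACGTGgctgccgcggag
Nop2, chr6:125131811-125131840, plus strand: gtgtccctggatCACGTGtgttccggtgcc
Tsr1, chr11:74898092-74898121, plus strand: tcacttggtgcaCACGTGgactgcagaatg
The motif starts 16 bases after the start of Utp4, 3 after Pes1, 18 after Wdr43, 60 before Nop2 and 25 after Tsr1. Pes1, a factor of large subunit assembly, read 249, 232, 294 and 296 CPM in B and 115, 142, 157 and 146 in T. Wdr43, of the small subunit processome, read 473, 496, 545 and 617 in B and 256, 317, 339 and 275 in T, and Utp4, of the same complex, read 122, 152, 242 and 215 in B and 89.6, 84.9, 98.95 and 85.4 in T. The lineages did not overlap in these 3 genes. Tsr1 and Nop2 were called higher in B too (-0.53 ± 0.13 and -0.76 ± 0.19). The call of Tsr1 was lost without T deltaPOZ 2 (adjusted p = 0.062) or T wt 1 (adjusted p = 0.056), and that of Nop2 without T deltaPOZ 2, T wt 1 or B deltaPOZ 2 (adjusted p of 0.053 to 0.072). The other motifs searched, of Ebf1 (CCCNNGGG), octamer factors (ATGCAAAT), E2A (CAGGTG), Runx (TGTGGT), Tcf and Lef (CTTTGA), Rbpj (GTGGGAA) and Ets factors (CAGGAAGT), were found in 1.38 to 18.0% of all promoters, and their shares among genes higher in T or in B differed from these by at most 2.50 percentage points. Shares within single lists of a few promoters ranged more widely. E2A letters were in 12 of 22 T cell receptor promoters (54.5%) and 9 of 17 B cell receptor promoters (52.9%) against 16.7% of all. Runx letters were in 9 of 21 T cell surface promoters (42.9%) and 5 of 6 NK cell and effector promoters (83.3%) against 12.6% of all. These lists were picked after the shares were seen.

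Genes of the cytosolic ribosomal proteins were called in 51 of 65 cases, each higher in B, with a median of -0.61. Their summed level was 71571 to 93280 CPM in B and 47322 to 57624 CPM in T. Rps19 read 1337, 1067, 1226 and 935 in B and 532, 586, 616 and 633 in T, and B libraries were higher throughout, by 1.93-fold. In the 5-library fit all 65 differences were negative and 5 genes were called. The count of calls was 32 without B wt 1, 28 without T wt 1, 33 without T wt 2, 25 without T deltaPOZ 1 and 31 without T deltaPOZ 2. Ribosomal protein genes have many processed pseudogenes, and reads that fit both may be dropped. Of the 39 tested pseudogenes named after ribosomal proteins 24 were called, each higher in B, with a median of -0.77. These are short genes, and exon length moved with the comparison over all genes: the 20% of genes with the shortest exons, up to 2.28 kb, had a median difference of -0.12 with 21.1% higher in B, and the 20% with the longest, from 7.47 kb, 0.15 with 14.4% higher in B. The part of length in the result was not tested.

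Of 27 glycolysis genes 12 were called higher in B and 3 higher in T, with a median of -0.54. Eno1, an enolase, read 399, 493, 1034 and 931 CPM in B and 275, 253, 319.8 and 287 in T, with the deltaPOZ libraries above the wt libraries in B. Ldha, which makes lactate, read 894, 1204, 1526 and 1810.04 in B and 664, 636, 931 and 811 in T, and B wt 1 lay below the highest T library (-0.81 ± 0.14 (SE), adjusted p = 0.0057). Slc2a1 (GLUT1), a glucose carrier, read 20.4, 24.9, 41.4 and 27.1 in B and 13.2, 8.905, 15.4 and 11.2 in T and was higher in B throughout, whereas Slc2a3 (GLUT3) overlapped (adjusted p = 0.81). Pfkfb3, which speeds glycolysis by making fructose 2,6-bisphosphate, was higher in B (-1.71 ± 0.17). The genes higher in T were Hk1, Pfkm and Bpgm. Bpgm, which makes bisphosphoglycerate in red cells, read 19.9, 13.1, 14.4 and 12.98 in B and 75.5, 270.4, 129 and 168 in T, highest in T wt 2, as the erythroid sum was, and the part of red cell precursors in it was not tested. Pfkm lost its call without T deltaPOZ 1, T deltaPOZ 2, T wt 2 or B wt 1 (adjusted p of 0.054 to 0.08). The counts were 2 in each direction in the 5-library fit.

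**Figure D5:**
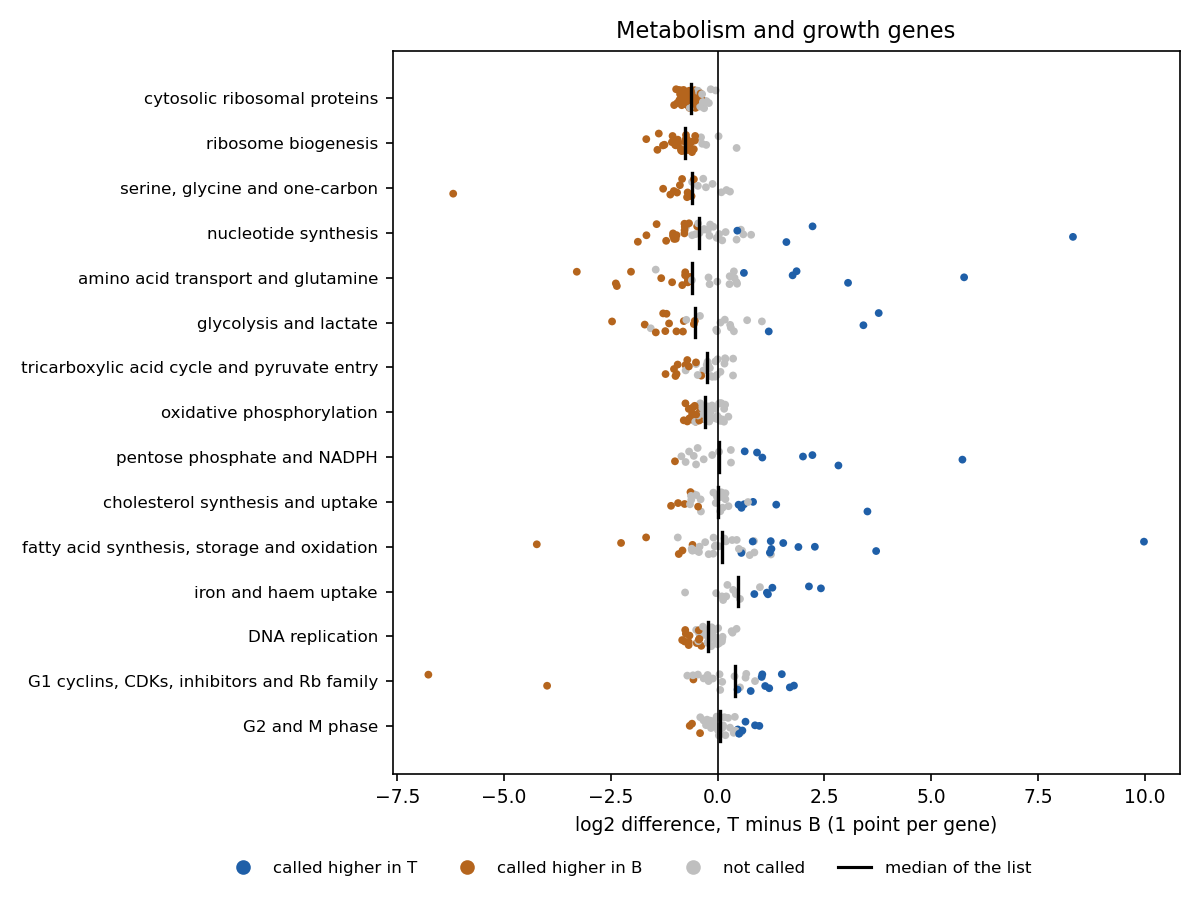
Fitted log2 difference of T minus B with 1 point per gene for 15 lists of metabolism and growth, blue where called higher in T, brown where called higher in B and grey where not called. Black bars mark the medians, -0.61 for ribosomal proteins and -0.75 for ribosome biogenesis. The point farthest right is Acsl6, which has 0 counts in B, so that its place depends on the prior count of the fit.

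Mitochondrial genes leaned to B by small amounts. Of 30 genes of the tricarboxylic acid cycle and pyruvate entry 10 were called, each higher in B, with a median of -0.25. Of 57 genes of oxidative phosphorylation 20 were called, each higher in B, with a median of -0.30. Sdhb, a subunit of succinate dehydrogenase and so of both lists, read 164, 176, 302 and 355 CPM in B and 125, 141, 136 and 158 in T. Suclg1, of succinyl-CoA ligase, read 130.3, 120.3, 138 and 166 in B and 63.1, 65.1, 85.2 and 71.6 in T, and Ndufs8, of complex I, read 114, 90.3, 102 and 108 in B and 46.7, 55.8, 68.4 and 71.03 in T. B libraries were higher in the 3 genes, by 1.69-, 1.95- and 1.73-fold, though the highest T library of Sdhb lay close to B wt 1. Atp5b, which is among the most abundant members, did not pass (adjusted p = 0.22). The oxidative phosphorylation count was 12 without T wt 1, 9 without T deltaPOZ 1 and 11 without T deltaPOZ 2. In the 5-library fit edgeR called 0 of the 57, with 13 at an unadjusted p under 0.05 and 46 of the 57 differences negative, and it called 1 gene of the cycle.

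Of 38 nucleotide synthesis genes 15 were higher in B and 4 higher in T. Aprt, which salvages adenine, read 72.5, 100.4, 169.99 and 213 CPM in B and 27.6, 36.1, 42.6 and 35.3 in T. Rrm2b, a ribonucleotide reductase subunit, read 87.2, 42.7, 51.8 and 56.8 in B and 17.5, 16.997, 15.8 and 24.6 in T. Both were higher in all B libraries. Ampd1, an AMP deaminase, went the other way at 0.0747, 0.112, 0.0772 and 0.0197 in B and 22.4, 27.1, 22.4 and 17.2 in T (8.32 ± 0.42 (SE), adjusted p = 0.00017), and Impdh1, of guanine synthesis, read 48.9, 42.3, 32.8 and 29.9 in B and 112, 155, 125 and 73.9 in T. Rrm1, the large reductase subunit, did not differ detectably (-0.02 ± 0.11). Of 19 serine, glycine and single-carbon genes 11 were called, each higher in B. Shmt1 read 152, 264, 299 and 281 in B and 61.3, 101, 144 and 110.1 in T, and its mitochondrial relative Shmt2 read 261, 279, 357 and 369 in B and 127, 167, 243 and 148 in T. Cth, which makes cysteine from cystathionine, read 16.9, 14.8, 46.04 and 15.6 in B and 0.151, 0.0723, 0.59 and 1.01 in T, the largest difference of the list (-6.19 ± 0.51). The single-carbon count was 7 without T deltaPOZ 2. Within the 5-library fit 3 single-carbon genes were called, each higher in B, and of the nucleotide list 3 were higher in T and 2 higher in B.

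Amino acid transport and glutamine genes were higher in B for 13 of 29 and higher in T for 5. Bcat1, a branched-chain aminotransferase, read 132, 289, 367 and 349 CPM in B and 31.98, 53.9, 88.1 and 40.6 in T. Slc1a4, a carrier of small neutral amino acids, read 9.32, 26.2, 57.9 and 67.7 in B and 2.12, 3.703, 5.37 and 2.54 in T. Both were above T in every B library (-2.39 ± 0.36 and -3.298 ± 0.44), with B wt 1 lowest among the B libraries. Slc6a9, the glycine carrier of red cell precursors, was higher in T at 0.0934, 0.312, 5.02 and 8.75 in B and 38.95, 104, 54.5 and 60.2 in T, highest in T wt 2, and the part of red cell precursors was not tested. The count higher in B was 8 without B deltaPOZ 2 and 7 without T deltaPOZ 2. With T wt 1, T wt 2, T deltaPOZ 2, B deltaPOZ 2 or either B wt library left out, 3 were higher in T. The counts were 3 higher in B and 1 higher in T in the 5-library fit.

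Of 19 genes of the pentose phosphate path and NADPH 7 were higher in T and 1, Pgd, higher in B. Gclm, of glutathione synthesis, read 12.7, 17.9, 21.2 and 20.9 CPM in B and 60.5, 109, 74.4 and 89.4 in T, and Txnrd1, a thioredoxin reductase, read 52.8, 89.9, 107 and 85.5 in B and 178, 168, 182 and 155 in T. Pgd, an enzyme of the pentose phosphate path itself, read 51.3, 70.8, 90.1 and 98.1 in B and 32.8, 33.8, 49.2 and 37.1 in T. The lineages were apart in all 3. The T libraries ranked in Gclm as in the erythroid sum, and the part of red cell precursors in it was not tested. With T deltaPOZ 2 or either B wt library left out, 4 were higher in T, and 2 within the 5-library fit. Beside Pgd a further gene was called higher in B without B wt 1, B wt 2, B deltaPOZ 1 or T wt 2, and 2 further genes without T deltaPOZ 1.

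Lipid genes were called in shares near those of all genes. Fatty acid genes were higher in T for 10 of 40 and higher in B for 6. Elovl6, which extends fatty acids, read 219, 177, 102 and 125 CPM in B and 6.27, 9.07, 8.21 and 8.31 in T, with a difference of -4.24 ± 0.19 (SE), adjusted p = 0.00011. Lipa, the lysosomal lipase, read 28.3, 36.3, 37.6 and 25.1 in B and 182, 173, 60.6 and 95.8 in T, higher in T (1.89 ± 0.22). Fasn, the fatty acid synthase, overlapped (adjusted p = 0.29). Acsl6, an acyl-CoA synthetase, was at 0 counts in all B libraries and at 2.19, 3.12, 1.84 and 2.45 CPM in T, at least 161-fold higher by a floor of 3 counts over the B libraries. Cd36, a fatty acid carrier also found on platelets and red cell precursors, was higher in T at 31.9 to 169.8 CPM against 2.41 to 12.7 in B. Without T deltaPOZ 2, 6 were higher in T, and within the 5-library fit 5 were higher in T and 2 higher in B. Of 30 cholesterol genes 6 were higher in T and 5 higher in B. Dhcr7, the last enzyme of synthesis, read 5.49, 9.39, 8.82 and 7.49 in B and 21.8, 20.6, 22.4 and 15.9 in T without overlap. Without T wt 1 these cholesterol counts were 2 and 1, and without T deltaPOZ 1 they were 3 and 3. The latter count was also 2 without B wt 1, 3 without B wt 2, 2 without T wt 2 and 1 without T deltaPOZ 2, and the 5-library fit called 2 genes, each higher in T.

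Iron and haem genes were called in 6 of 16 cases, each higher in T. The share called, 37.5%, was near the 38.8% of all genes, of which 20.2% were higher in T. Slc40a1, the iron exporter ferroportin, read 3.38, 8.43, 20.4 and 7.43 CPM in B and 24.95, 60.4, 44.5 and 65.1 in T, and Hmox1, which breaks down haem, read 5.45, 4.13, 15.1 and 4.97 in B and 32.1, 36.99, 18.2 and 35.6 in T. T libraries were above B libraries in both (2.42 ± 0.50 and 2.14 ± 0.41). Red cell precursors and the macrophages around them use these genes, and their part was not tested. Without B wt 1 the list gave 3 calls higher in T and 1 higher in B, and the 5-library fit gave 2, each higher in T.

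The D-type cyclins, which start the cell cycle, differed between the lineages. Ccnd1, a D-type cyclin that is silent in most lymphocytes, read 164, 209, 262 and 217 CPM in B and 1.398, 1.59, 2.398 and 2.59 in T, a 109-fold difference (-6.77 ± 0.17 (SE), adjusted p = 4.2e-05; chromosome 7, 144929931 to 144939925). Ccnd3, the D-type cyclin of thymocytes and other lymphocytes, read 74.5, 140.5, 35.9 and 68.5 in B and 196, 288, 180.4 and 190.4 in T and was higher in T (1.501 ± 0.29). Ccnd2 read 15.4, 5.91, 4.07 and 34.6 in B and 33.6, 10.7, 9.94 and 10.2 in T and overlapped (adjusted p = 0.96). Rb1, the retinoblastoma gene that these cyclins inactivate, read 41.9, 44.96, 48.7 and 29.9 in B and 81.3, 117, 80.1 and 103 in T and was higher in T. Of 27 G1 genes 9 were higher in T and 3 higher in B, and the latter count was 1 without B wt 2, T wt 1, T deltaPOZ 1 or T deltaPOZ 2. Cdkn2a, the Ink4a and Arf locus, was called higher in B with 0.971, 11.8, 2.35 and 89.6 in B and 0.945, 1.43, 1.48 and 0.463 in T, where B deltaPOZ 2 alone was high, and the call was lost without T deltaPOZ 1, T deltaPOZ 2, T wt 1, T wt 2, B deltaPOZ 2 or B wt 2 (adjusted p of 0.1 to 0.16).

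Of 44 DNA replication genes 12 were called, each higher in B, with a median of -0.22. The most abundant, such as Mcm6 and Pcna, did not pass (adjusted p = 0.16 and 0.45), and Rpa2, of the single-strand binding complex, read 163, 141, 236 and 191 CPM in B and 99.4, 98.1, 115 and 119 in T. The count was 6 without T deltaPOZ 1 or T deltaPOZ 2, and within the 5-library fit edgeR called 0, with 7 at an unadjusted p under 0.05. Of 39 G2 and M phase genes 7 were higher in T and 3 higher in B. The share called, 25.6%, was below the 38.8% of all genes. Mki67, the proliferation marker, read 1508, 1385, 1038 and 1111 in B and 2197, 3033, 1848 and 2146 in T, higher in every T library (0.87 ± 0.14 (SE), adjusted p = 0.0045), while Top2a, a topoisomerase of dividing cells, did not pass (0.03 ± 0.14, adjusted p = 0.89). The count higher in T was 4 without T wt 1 or T wt 2 and 3 without T deltaPOZ 2, and that higher in B was 1 without T deltaPOZ 2. Red cell precursors divide as well, their summed genes were higher in every T library, and their part in the cell cycle results was not tested.

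Genes of cell death and of p53 were called about as often as the 38.8% of all genes. Of 18 BCL2 family genes 5 were higher in T and 1, Bnip3, higher in B. Bcl2l1 (BCL-XL), a survival protein of thymocytes and red cell precursors, read 11.8, 9.86, 5.07 and 3.05 CPM in B and 53.3, 134, 53.6 and 69.1 in T (3.51 ± 0.36), highest in T wt 2 as the erythroid sum was, and the part of red cell precursors was not tested. Bnip3, a mitochondrial protein of hypoxia and autophagy, read 18.6, 16.4, 6.08 and 9.005 in B and 1.15, 1.23, 0.978 and 2.3997 in T. Bcl2 and Mcl1, the other main survival genes, overlapped (adjusted p = 0.86 and 0.34). Without B wt 2, B deltaPOZ 1 or T deltaPOZ 1 a further gene was higher in B. Of 27 p53 pathway genes 6 were higher in T and 4 higher in B. Plk2, a p53 target kinase, read 24.04, 7.898, 2.72 and 23.8 in B and 0.869, 0.452, 0.793 and 1.53 in T, and Gadd45g, a stress gene, read 1.46, 0.58, 0.598 and 0.394 in B and 6.91, 23.5, 5.24 and 10.7 in T. These 2 moved in opposite directions without overlap. The p53 count higher in T was 3 without T wt 1 or T deltaPOZ 2 and 2 without T wt 2 or T deltaPOZ 1. Within the 5-library fit 3 BCL2 family genes were higher in T and 1 higher in B, and 1 p53 gene in each direction. Apobec1, a cytidine deaminase of RNA, read 217, 101, 79.3 and 93.5 in B and 14.4, 8.04, 6.34 and 12.3 in T, and Tet1, which oxidises methylated cytosine, read 0.654, 2.95, 0.309 and 0.69 in B and 24.95, 23.4, 13.96 and 20.3 in T, with the lineages apart in both.

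The largest log2 differences included genes outside the lists. Alx4, a homeobox gene of limb and skull development (chromosome 2, 93642384 to 93681339), had 0 counts in all B libraries and read 91.03, 487, 468 and 52.3 CPM in T. With a floor of 3 counts over the B libraries it was at least 18378-fold higher in T (adjusted p = 0.0041). H2-T3, a class I gene of thymocytes, also had 0 counts in B and read 201, 321, 87.8 and 288 in T, at least 15039.8-fold higher. Dsp (desmoplakin), a protein of epithelial junctions, read 0.0187, 0, 0.0579 and 0 in B and 819, 1189, 810.5 and 598 in T. Zfp641, a zinc finger gene, read 0, 0.0446, 0 and 0.0197 in B and 201, 613, 245 and 299.5 in T. All 4 T libraries were high in these genes, and Alx4 was lower in T wt 1 and T deltaPOZ 2 than in the other T libraries. The T libraries ranked in Zfp641 as in the erythroid sum, and the part of red cell precursors in it was not tested. Kel, Rhag and Trim58, among the 15 largest, are red cell genes. Iltifb, a copy of the interleukin 22 gene, was at 0 counts in B and read 9.09, 55.6, 1.05 and 50.3 CPM in T. Foxb1, a forkhead gene, was also at 0 in B and read 12.3, 1.61, 18.998 and 34.1 in T.

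On the B side Kcnk1, a potassium channel, read 107, 16.8, 60.3 and 8.32 CPM in B and 0, 0, 0 and 0.0514 in T. Uchl1, a ubiquitin hydrolase of neurons and germinal centre B cells, read 40.1, 38.2, 42.8 and 24.5 in B and 0.283, 0.0361, 0 and 0.0514 in T. Cplx2 (complexin), of vesicle fusion, read 226, 141, 123 and 58.4 in B and 0.982, 0.289, 0.406 and 0.891 in T. Every B library was above every T library in the 3 genes, with differences of -9.06 and -7.64 for the last 2. Foxf2, a forkhead gene of mesenchyme, read 86.5, 2.16, 65.4 and 22.4 in B and 0, 0, 0 and 0.103 in T. Among the 10 genes with the largest difference in CPM toward B was Reln (reelin), a secreted protein best known from the nervous system, at 2986, 263, 2756 and 753 in B and 5.36, 71.6, 21.3 and 33.9 in T. Its call failed in fits without T deltaPOZ 1 (adjusted p = 0.054) or T deltaPOZ 2 (adjusted p = 0.05). By the same measure Cdk5rap2, a centrosome protein, was among the 10 largest toward T, at 53.4 to 109.8 CPM in B and 1258, 1985, 854 and 1507 in T. Rapgef2, an activator of the small GTPase RAP1, read 1.48 to 37.9 in B and 844, 529, 1284 and 2516 in T, highest in T deltaPOZ 2.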

How the data were processed

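Polyadenylated RNA of 8 spleen tumours was sequenced, and the deposited values are counts of reads per gene, whole numbers that the authors did not normalize. Per the labels' protocols RNA was isolated with MagMax-96 kits and libraries were made with TruSeq Stranded mRNA kits. Per the submitters' processing notes, TopHat2 2.0.10, SAMtools, HTSeq and DESeq were used, with the builds mm10 and GRCm38; the sources used here give neither the annotation release nor the strand and overlap settings. Reads with no gene, 30.4 to 39.3% of each library, were left out. GENCODE M21 supplied symbols and coordinates and matched 40340 of 41214 identifiers (97.9%).

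The deposited counts were tested with edgeR 4.0.16 (R 4.3.3): genes with 1 CPM in at least 4 libraries, trimmed mean of M values scaling, 1 mean per lineage and genotype, and the quasi-likelihood test of the mean of both T groups minus the mean of both B groups. Benjamini-Hochberg adjustment covered 12285 genes, of which the 11799 autosomal ones are reported. The fit left 4 residual degrees of freedom. CPM were computed over the tested genes with TMM-scaled library totals. Alternatives were other scalings and filters, DESeq2 1.42.0, limma-voom (limma 3.58.1), other models and thresholds, each genotype alone, and fits without 1 or without 3 libraries.

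Genes were named by rule: the 15 largest log2 differences and 10 largest CPM differences in each direction, and in each list the leading called members, members against the majority and abundant members not called. The lists, the members and the questions were chosen with earlier results of these data known. Of 245 autosomal genes named in the text, 30 lie outside the rule and were chosen after their values were seen, among them most genes of the printed promoter windows. Some genes that met the rule are not reported here.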

Additional observations from a re-analysis of the deposited data

Results flagged for a closer look

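The genes named here were examined for a library far from the other 3 of its lineage, taken as a gap to the nearest library divided by the whole range that passed Dixon's critical value for 4 values. The ratio was taken on log2 of CPM plus 0.1, and on CPM itself some genes below would not pass and others would. This held for 25 of 490 groups of 4 libraries, and chance alone gives about 1 in 20. Each value is set against the range of the other 3 libraries of the lineage. Among the B libraries, B wt 1 stood apart for Cd79b at 955 CPM against 462 to 482, Ikzf3 at 192 CPM against 96.7 to 101 and Xrcc6 at 392 CPM against 222 to 233. B wt 2 stood apart for Ptcra at 0.0892 CPM against 0.523 to 0.63. The library B deltaPOZ 1 did so for Cth at 46.04 CPM against 14.8 to 16.9. In B deltaPOZ 2 the genes were Lck at 47.4 CPM against 12.2 to 14.7, Lfng at 55.8 CPM against 71.5 to 72.1 and Stat5b at 105 CPM against 84.8 to 87.6. Among the T libraries, T wt 1 stood apart for Bach2 at 14.6 CPM against 4.67 to 5.54, Ccnd2 at 33.6 CPM against 9.94 to 10.7, Jak1 at 282 CPM against 201 to 212 and Rrm1 at 607 CPM against 656 to 658. T wt 2, which held the lowest levels of B cell genes, stood apart for Cd79b at 5.24 CPM against 21.04 to 26.04, Dapp1 at 42.3 CPM against 55.4 to 56.5, Plcg2 at 3.76 CPM against 14.6 to 16.1, Siglecg at 1.34 CPM against 5.44 to 6.599 and Spi1 at 2.22 CPM against 5.67 to 6.82. In T deltaPOZ 1 the genes were Arpp21 at 40.6 CPM against 198 to 221, Cd44 at 59.9 CPM against 127 to 139.8, Ly9 at 107 CPM against 80.7 to 84.3, Notch1 at 288 CPM against 780.3 to 948 and Rag1 at 8.36 CPM against 771 to 1105. The library T deltaPOZ 2 stood apart for Foxf2 at 0.103 CPM against 0 in the other 3, Kcnk1 at 0.0514 CPM against 0 in the other 3 and Sox4 at 224 CPM against 282 to 291.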

How the results depend on the processing

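A test against a log2 difference of 1 called 1435 genes, 1018 higher in T and 417 higher in B, and an adjusted p under 0.01 called 2403, 1375 and 1028. The fit without B wt 2, T wt 1 and T deltaPOZ 2, with additive terms, called 1341, 898 and 443, and additive terms with all 8 libraries called 4610. The contrast in wt alone called 2359, 1369 and 990, and in deltaPOZ alone 2624, 1475 and 1149. Leaving out each library in turn gave 3085 to 4199 calls, 1743 to 2259 higher in T and 1342 to 1940 higher in B, lowest without T deltaPOZ 2. These had fewer samples or a stricter threshold by construction. Other scalings, filters and models in edgeR gave 3918 to 5573 calls, limma-voom 4633 and DESeq2 5419. Of the 4573 genes none changed sign in these, but 12 did in wt alone and 13 in deltaPOZ alone. Of 206 called genes named here, 12 lost the call in a fit without 1 library, 83 in at least 1 of the 24 alternatives and 61 in the fit without 3 libraries. Among them 0 changed direction. No paired analysis was possible because replicates were numbered by their place in the sample list, which pairs no samples. Depth limits genes near 0 counts. With 2 libraries per group the p-values measure the spread between tumours of the same lineage and genotype. They hold no spread between the sequencing runs, and run cannot be told apart from lineage.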

Other observations

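Plasma cell genes did not follow the B lineage as a group. Of 12 tested, 5 were called higher in B and 3 higher in T, and the 5-library fit called 3, each higher in B. Mzb1, a chaperone of immunoglobulin secretion, read 173, 151, 158 and 79.9 CPM in B and 19.7, 15.2, 12.9 and 15.2 in T, with a difference of -3.15 ± 0.25 (SE), adjusted p = 0.00047. Txndc5, an enzyme of protein folding, read 127, 125, 160.3 and 319.9 in B and 93.6, 53.1, 77.4 and 63.1 in T. Ell2, an elongation factor that plasma cells use for secreted immunoglobulin, went the other way at 0.616, 1.72, 2.28 and 3.15 in B and 15.5, 24.8, 12.6 and 20.3 in T (3.35 ± 0.42). The lineages did not overlap in these 3 genes. Platelet and megakaryocyte genes were called in 4 of 6 tested cases, each higher in T, and 7 further members did not reach the filter. Itga2b, an integrin chain of platelets, read 0.318, 0.803, 0.309 and 0.512 in B and 4.85, 8.89, 10.3 and 17.5 in T, highest in T deltaPOZ 2. It was under 1 CPM in every B library, so it entered the test through T alone and had to differ. The 5-library fit called 2 of the list.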
